A study of Saccharomyces cerevisiae with 24 samples.

Results

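The 26S proteasome of budding yeast and its transcription activator were followed here through ribosome footprint densities. The genes were chosen by name: RPT1 to RPT6, RPN1 to RPN13 including RPN4, PRE1 to PRE10, PUP1 to PUP3 and SCL1, which gave 33 of the 5564 lines of the expression table. Of these, 32 encode subunits, 10 in the base, 8 in the lid and 14 in the core particle, and RPN4 (YDL020C) encodes the activator.

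The proteasome degrades proteins that carry ubiquitin chains. Its core particle is a barrel with rings of alpha and beta subunits, and the proteolytic sites lie on beta subunits inside it. The base of the regulatory particle holds the ATPases that unfold a substrate and the receptors that bind ubiquitin, and the lid removes the ubiquitin before the protein is threaded into the core. Rpn4 binds an element shared by the promoters of most subunit genes and is itself a short-lived substrate of the proteasome, so that in yeast the supply of subunits is tied to the load of the enzyme. The Yap1, Hsf1, Pdr1 and Pdr3 factors are known to act on the RPN4 promoter.

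Footprints of 80S ribosomes were sequenced from strain BY4741 in 23 libraries, to ask how cycloheximide in the medium alters profiles of stressed and unstressed cells. Cells in YPD at 30°C were exposed to 0.2 mM hydrogen peroxide for 30 min (oxidative stress, 8 libraries), moved to 42°C for 20 min (heat shock, 2 libraries), lysed without stress or drug in a buffer with edeine or aurintricarboxylic acid, inhibitors of translation initiation (1 library each), or left unstressed (8 libraries). Oxidative stress and unstressed cells were harvested without the drug and at 6 cycloheximide doses, x1/64, x1/16, x1/4, x1, x8 and x100, where x1 is 100 μg/ml, so that the range ran between 1.56 and 10000 μg/ml. Heat shock was profiled without drug and at x1. Cells grown in synthetic SD medium were kept for 20 min in SD without amino acids or in SD with only His, Met and Leu and set beside complete SD (1 library each). The lysis buffer held cycloheximide for every library, those called drug-free included. The x8 stock was made in DMSO, and at x100 the cells were first collected on a filter and then resuspended with the drug. According to the methods, cells for heat shock and for SD short of amino acids were filtered and moved to a new flask. No such move is described for oxidative stress, unstressed cells or complete SD. For heat shock and SD short of amino acids, the stress and the move thus cannot be told apart. The x100 dose had 2 libraries per stress, repeated independently according to the methods, and every other condition had 1.

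Values are RPKM, the reads per kilobase of reading frame and per 10 to the power of 6 reads, as the authors deposited them. They are relative within a library and are here called densities. A density reflects both the amount of an mRNA and the ribosomes on it, which cannot be told apart without RNA libraries. Depths recovered from the values lay between 1.92 and 27.9 (median 6.94), in units of 10 to the power of 6 reads. The 32 subunits were covered by 141 reads or more in every library, with a median of 1459, and RPN4 by 149 to 1836 reads. Stress moved the bulk of all genes as well: the median change was 0.53 (log2) under oxidative stress and -0.28 under heat shock, so each result is also given relative to it, after centring every library on its median gene. Both heat shock libraries used primer set 2, as did 11 of the 23 libraries, whereas the unstressed libraries without drug and at x1 used set 1.

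Subunit densities lay close together within every library. Their median was highest in oxidative stress at x1/4, with 506 RPKM, and lowest in unstressed cells at x1, with 146 RPKM. The SD of log2 density among the 32 subunits was 0.25 to 0.48 in the 23 libraries, against 1.65 to 2.24 among all genes. The highest subunit exceeded the lowest 1.99 to 3.91 times, and the median of this ratio was 2.36. The widest spread was in the unstressed x1/64 library, one of the shallowest at a depth of 2.03, where RPN13 (YLR421C) reached 335 RPKM, against 144 to 207 RPKM in the other 7 unstressed libraries. As a share of the summed RPKM of all lines, the subunits took 1.78 to 2.36% in oxidative stress, 1.18 and 1.32% in heat shock, and 0.602 to 0.797% in unstressed cells.

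**Figure D1:**
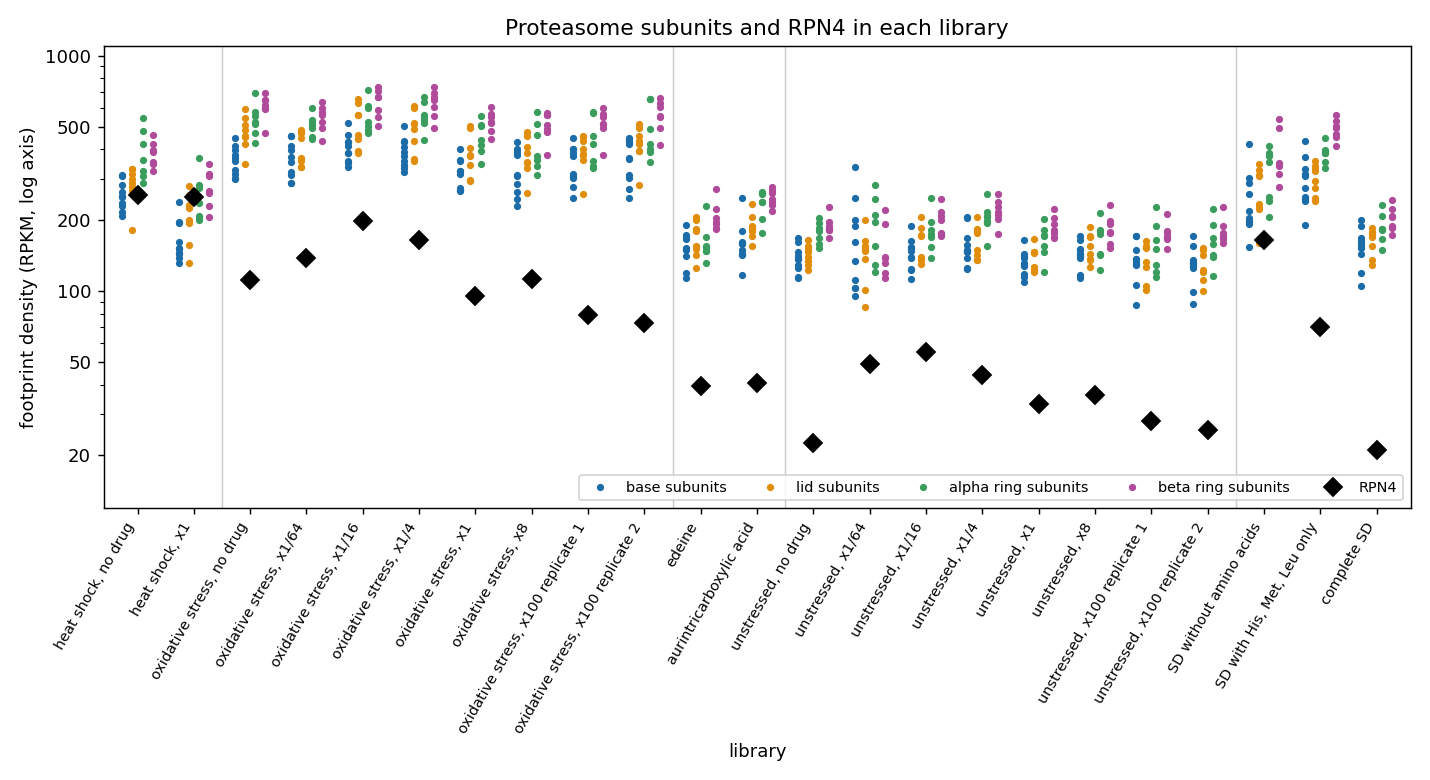
Footprint density in RPKM (log axis) of each subunit (dots, coloured by base, lid, alpha ring and beta ring) and of RPN4 (diamonds) in all 23 libraries. RPN4 lies below every subunit in the 8 unstressed libraries, at 22.5 to 55.1 RPKM, and within the range of the subunits in both heat shock libraries, at 257 and 251 RPKM. It also lies within that range in SD without amino acids, at 165 RPKM, where the lowest subunit is at 154 RPKM.

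The order of the subunits was largely kept. SCL1 and PRE7, an alpha and a beta subunit, and the beta subunit PUP3 stood above the subunit median in 23 of 23 libraries. SCL1 exceeded it by 0.51 ± 0.12 and PRE7 by 0.49 ± 0.14 (log2, mean ± SD over 23 libraries), a gap smaller than either SD. RPN2 and RPN3, scaffold proteins of the base and the lid, and the ATPase genes RPT2, RPT3, RPT4 and RPT5 stood below it in 23 of 23 libraries. RPN2 was lowest at -0.63 ± 0.15, followed by RPN3 at -0.45 ± 0.15 and RPT3 at -0.44 ± 0.10. The remaining 23 subunits lay between 0.37 ± 0.20 (PRE3) and -0.35 ± 0.24 (RPN1). Of these, PUP2, PUP1, RPN5, PRE5, RPN8 and RPN13 were above the median in only 12 to 15 of 23 libraries.

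Outside the unstressed x1/64 library, the core particle was denser than the base. The ratio of the core median to the base median was 1.49 and 1.75 in heat shock, 1.42 to 1.61 in oxidative stress and 1.00 to 1.41 in unstressed cells. The lid median was 1.01 to 1.41 times that of the base over the 23 libraries. Density also followed length. Across the 32 subunits, the mean log2 density over the 23 libraries correlated with the log2 length of the gene with a Pearson's r of -0.732 and a Spearman's rho of -0.753, where genes are not independent replicates and all points come from the same libraries. The genes of the core had a median length of 764 nt (597 to 867 nt), those of the lid 1236 nt and those of the base 1309.5 nt, with RPN1 the longest at 2982 nt. The part of length in the difference between core and base was not tested.

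Oxidative stress was compared with unstressed cells over 7 doses, 8 libraries against 8, to ask which genes change whatever the drug treatment. All 32 subunits rose, with log2 changes of 1.01 to 1.82 and a median of 1.48 (limma on log2(RPKM + 1) with the dose as a block; adjusted p of 5.72e-07 at most). The background was high, as 63.0% of the 4352 genes tested rose in this comparison. After centring, 32 of 32 subunits rose, with a median of 0.95, where 41.5% of all genes did. All 8 oxidative libraries lay above all 8 unstressed libraries for 33 of the 33 genes, a pattern shown by 38.2% of all genes. The SD of the change among the subunits was 0.19, against 1.43 among all genes tested. The stresses differed in primer set at x1 and x8, and over the other doses 32 of 32 subunits rose with a median of 1.52.

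RPN4 rose 3.21-fold. Its density under oxidative stress was 111 RPKM without drug, then 138, 199, 165, 95.1 and 112 RPKM over the doses from x1/64 to x8, and 79.2 and 72.8 RPKM at x100. In unstressed cells it was 22.5 RPKM without drug, then 49.0, 55.1, 43.8, 33.1 and 36.3 RPKM over the same doses, and 28.0 and 25.7 RPKM at x100. Both series were highest at x1/16, and the lowest oxidative value exceeded the highest unstressed one. The log2 change was 1.68 ± 0.10 (SE; adjusted p = 5.11e-09, limma), or 1.16 after centring.

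Among the base subunits, the changes ran from 1.01 to 1.60 with a median of 1.34. RPT3 (YDR394W), one of the ATPases, had the largest. Its density was 378, 319, 414, 408, 325 and 286 RPKM under oxidative stress without drug and at x1/64, x1/16, x1/4, x1 and x8, and 314 and 312 at x100. In unstressed cells the same series was 114, 103, 124, 125, 109 and 114 RPKM, and 106 and 99.2 at x100. The groups were far apart at each dose, and the log2 change was 1.60 ± 0.07 (adjusted p = 3.88e-10, limma). The other ATPase genes changed by 1.29 (RPT1), 1.33 (RPT4), 1.35 (RPT5), 1.46 (RPT6) and 1.59 (RPT2).

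RPN1 (YHR027C), the scaffold on which shuttle factors and the deubiquitinase Ubp6 dock, had the smallest change of all members. It measured 302, 289, 336, 321, 268 and 263 RPKM under oxidative stress without drug and from x1/64 to x8, and 303 in both x100 libraries. It measured 161, 161, 139.9, 157, 141 and 150.4 RPKM in unstressed cells over the same doses, and 137 and 131 at x100. The groups did not overlap, at a log2 change of 1.01 ± 0.07 (adjusted p = 4.55e-08, limma), or 0.49 after centring. The ubiquitin receptors RPN10 and RPN13 were next, at 1.05 ± 0.08 and 1.20 ± 0.12, and the scaffold RPN2 changed by 1.39 ± 0.08. The spread of RPN13 came with the unstressed x1/64 library, in which its difference was 0.30, below that of every other subunit at that dose.

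Lid subunits rose by 1.35 to 1.76 with a median of 1.51. The largest change was that of RPN9 (YDR427W), a scaffold subunit. It measured 482, 337, 459, 486, 374 and 351 RPKM under oxidative stress without drug and from x1/64 to x8, and 362 and 395 at x100. The unstressed values were 129, 85.6, 130.2, 136, 120.1 and 135 RPKM, and 105 and 111 at x100. The lowest value of both series was at x1/64 and the groups were separate, at 1.76 ± 0.08 (adjusted p = 5.23e-10, limma). RPN11, the deubiquitinase of the lid, changed by 1.47 ± 0.08 and its partner RPN8 by 1.72 ± 0.08. The other scaffold subunits changed by 1.35 (RPN3), 1.48 (RPN7), 1.49 (RPN5), 1.54 (RPN6) and 1.60 (RPN12).

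In the core particle the changes ran from 1.37 to 1.82. The alpha ring, which gates the entry, was the most even group, with a median of 1.49 and an SD of 0.09 among its 7 members. PRE8 (YML092C) led it with 579, 532, 609.7, 636, 502 and 512 RPKM under oxidative stress without drug and from x1/64 to x8, and 572 and 652 at x100. The unstressed series was 195, 156, 182, 216, 171 and 179 RPKM, and 188 and 191 at x100. This is a log2 change of 1.63 ± 0.07 (adjusted p = 2.77e-10, limma) with no overlap. The rest of the ring changed by 1.37 (PUP2), 1.41 (PRE6), 1.44 (PRE9), 1.49 (SCL1), 1.5 (PRE5) and 1.56 (PRE10).

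The beta ring had a median of 1.65, and its PRE1 (YER012W), a subunit without a catalytic site, had the largest change of the 32 subunits. Under oxidative stress it measured 598, 577, 666, 666, 547 and 561 RPKM without drug and from x1/64 to x8, and 601 and 606 at x100. The unstressed series was 168, 139.7, 175, 210.0, 168 and 153 RPKM, and 176 and 177 at x100. The groups were separate at every dose, at 1.82 ± 0.07 (adjusted p = 1.19e-10, limma). The genes of the catalytic subunits changed by 1.77 ± 0.08 (PRE3), 1.68 ± 0.07 (PRE2) and 1.42 ± 0.09 (PUP1). PRE4, PUP3 and PRE7 changed by 1.65, 1.48 and 1.40. When all 32 changes are put in order, neighbours differed by less than the SE of either, except for the steps on both sides of RPN13, between RPN10 and RPT1.

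**Figure D2:**
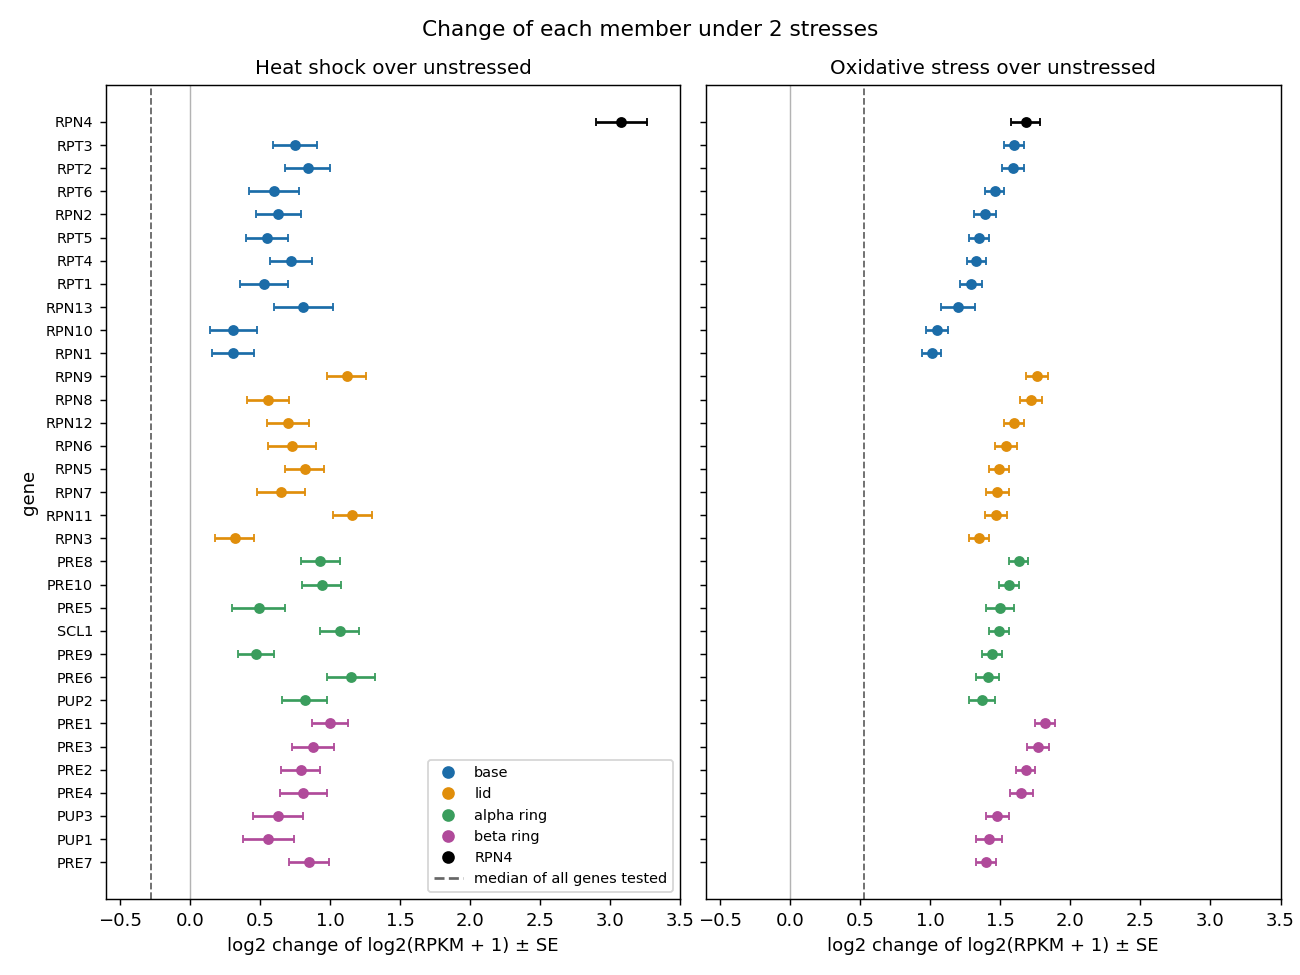
Log2 change ± SE (limma, log2(RPKM + 1)) of RPN4 and each subunit in heat shock over unstressed cells (left) and oxidative stress over unstressed cells over 7 doses (right), with the median of all genes tested as a dashed line. All subunits lie right of that line in both panels, and RPN4, at 3.08, stands apart from the subunits only in heat shock.

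The contrast of base, lid and core was small beside the common change. The median change of the base was 0.20 ± 0.11 (SD over 7 doses) below that of the core, with a difference under 0 at 7 of 7 doses and a range of -0.42 to -0.10. That of the lid differed from the core by 0.01 ± 0.09, and the beta ring exceeded the alpha ring by 0.16 ± 0.18. The values are differences between medians of the same libraries and carry no test. Across the 32 subunits the change had a Pearson's r of -0.291 with log2 gene length (Spearman's rho -0.262), given as a description.

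**Figure D3:**
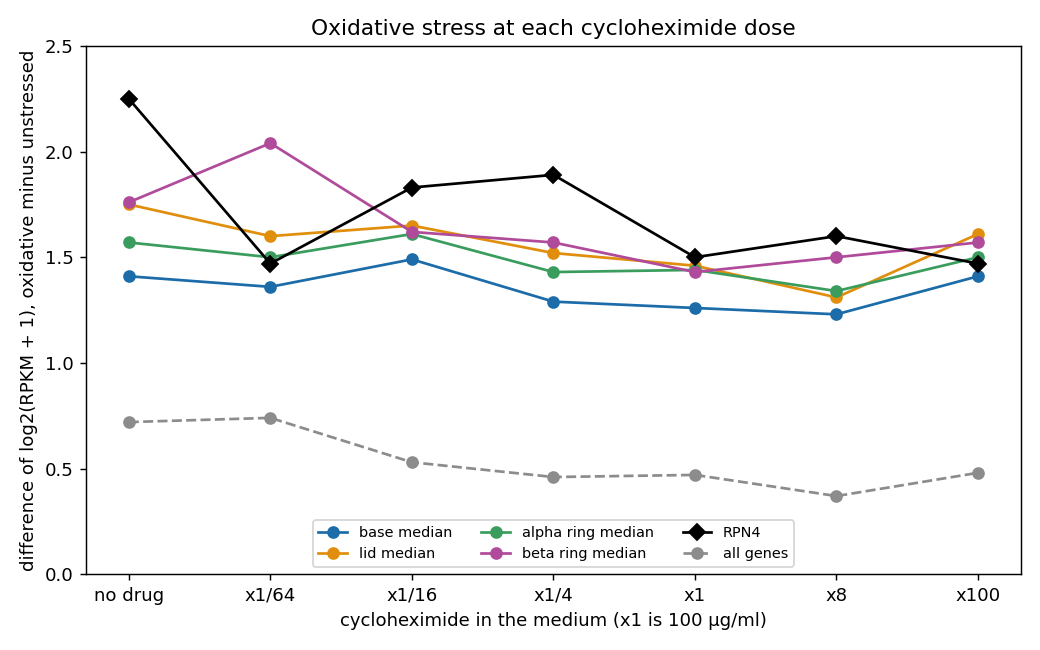
Difference of log2(RPKM + 1) between oxidative stress and unstressed libraries at each cycloheximide dose, as the median of the base, the lid, the alpha ring and the beta ring, for RPN4, and as the median of all genes (dashed). The base is the lowest of the subunit groups at each dose, and RPN4 is highest without drug, at 2.25.

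At x100 alone, where both stresses had 2 libraries, all 32 subunits rose by 1.10 (RPN10) to 1.80 (RPN9), with a median of 1.5, where 55.3% of 4101 genes rose (limma). After centring, the 32 subunits rose by a median of 0.99, against 31.6% of all genes. The replicates of a subunit differed by at most 0.24 (log2) under either stress, while the 95th percentile of this difference over all genes was 0.65 in oxidative stress and 0.41 in unstressed cells. The subunits were denser than the median gene in every library, and this comparison was not matched for density. RPN4 rose by 1.47, and its replicates differed by 0.12 under each stress.

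Heat shock was set against unstressed cells in a fit over 18 libraries. Only 2 of these were of heat shock, so the spread behind the p-values comes mostly from the oxidative and unstressed libraries. RPN4 rose 8.44-fold: it measured 257 RPKM without drug and 251 RPKM at x1 in heat shock, against 22.5 and 33.1 RPKM in the unstressed libraries of the same doses, and 55.1 RPKM at most in any unstressed library. Both heat shock values were thus above all unstressed and all oxidative ones. The log2 change was 3.08 ± 0.18 (adjusted p = 5.40e-09, limma), at percentile 96.8 of the genes tested, and 3.37 after centring. With the primer set as a term it was 3.19 (adjusted p = 1.87e-06).

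The subunits rose less. Of 32, 29 passed the test, all higher, where 26.7% of 4317 genes rose, and the median change was 0.74 with a range of 0.31 to 1.16. RPN10, RPN1 and RPN3 did not pass, at 0.31, 0.31 and 0.32 (adjusted p of 0.121, 0.0762 and 0.0634). After centring, 32 of 32 rose, with a median of 1.03, against 37.1% of all genes. The count depended on the libraries used. Without the drug-free heat shock library 17 of 32 passed, where 20.9% of all genes rose, and without the x1 library 32 passed (25.3% of all genes). With the primer set as a term 24 passed (22.6%). With only the 2 drug-matched pairs 5 of 32 passed where 17.8% of all genes rose, a share no higher than that of all genes.

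RPN11 (YFR004W), the deubiquitinase, had the largest change among them. It measured 329.6 RPKM without drug and 278 RPKM at x1 in heat shock, against 134 and 124 RPKM in the matching unstressed libraries and 163 RPKM at most in unstressed cells. Its log2 change was 1.16 ± 0.14 (adjusted p = 7.23e-06, limma). The alpha subunit PRE6 (1.15 ± 0.17), the lid subunit RPN9 (1.12 ± 0.14) and the alpha subunit SCL1 (1.07 ± 0.14) followed. RPN10 measured 229 RPKM without drug and 132 RPKM at x1, against 137 and 138 RPKM in unstressed cells, and was the 1 subunit that was lower in the x1 pair. RPN3 measured 181 and 131 RPKM in heat shock, against 123 and 122 RPKM.

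The 2 heat shock libraries differed in size of effect. Without drug the subunit median was 1.00 above unstressed cells, and 16 of 32 subunits were past 2-fold, as were 19.9% of all genes. At x1 the median was 0.46, with 31 of 32 subunits positive, against 35.8% of all genes, and 2 of 32 were past 2-fold, against 15.9%. After centring the medians were 1.07 and 0.98. Base subunits were again the lowest group: their median lay 0.27 below that of the core as a mean over the 2 pairs, with 0.90 against 1.04 without drug and 0.28 against 0.67 at x1.

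Heat shock and oxidative stress were also compared directly, and since both had been set against the same unstressed libraries, this comparison is the one that separates them. RPN4 rose by 1.39 ± 0.18 in heat shock over oxidative stress (adjusted p = 1.79e-05, limma), where 5.0% of all genes rose, and by 2.21 after centring. Of the subunits, 29 of 32 fell as deposited, with a median of -0.78, but so did 74.1% of all genes, whose median was -0.88. After centring, the subunit median was 0.04 and 4 of 32 passed the test. PRE6 (0.56), RPN11 (0.51) and SCL1 (0.41) were then higher, where 22.3% of genes were, and RPN8 (-0.34) was lower, where 24.9% were. PRE6 measured 478 and 282 RPKM in heat shock, against 511 RPKM without drug and 418 RPKM at x1 in oxidative stress. SCL1 measured 543 and 366 RPKM in heat shock, against 692 and 553 RPKM. RPN8 measured 277 and 201 RPKM, against 594 and 500.4 RPKM. For 19 of 32 subunits the sign of the difference turned with centring, and RPN4 (higher) and RPN8 (lower) were the members called in the same direction on both scales.

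Set beside the subunits of the same library, RPN4 stood highest in heat shock. The ratio of its density to the subunit median was 0.829 and 1.21 in heat shock, 0.171 to 0.396 in oxidative stress and 0.144 to 0.330 in unstressed cells. It was 0.560 in SD without amino acids and 0.202 with His, Met and Leu only, against 0.121 in complete SD. With edeine and aurintricarboxylic acid it was 0.237 and 0.207. The exposure times differed, with 20 min of heat and 30 min of peroxide.

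Within the series of drug doses, RPN4 fell with rising cycloheximide. In the 14 oxidative and unstressed libraries with drug in the medium, the slope was -0.23 ± 0.04 (log2 per 10-fold dose, stress and primer set as terms; adjusted p = 0.00253, limma), and -0.18 after centring (adjusted p = 0.0102). Of the subunits, 5 of 32 fell, where 19.5% of 4371 genes did, and 0 of 32 rose, where 4.30% did. These were PRE6 (-0.19), PUP2 (-0.15), RPN10 (-0.13), RPN3 (-0.10) and PUP3 (-0.09). After centring 1 of 32 fell, PRE6 at -0.13 (10.5% of all genes), and 8 of 32 rose (12.2% of all genes), RPT2, RPT4, RPN7, RPN9, PRE8, PRE1, PRE2 and PRE7. These calls need the libraries at x1/64, at 1.56 μg/ml: without that dose none of 4333 genes passed in either direction, although 960 had an unadjusted p under 0.05. The slope of RPN4 was then -0.25 (adjusted p = 0.161, limma), no weaker than the -0.23 with it. Without x1/64, primer set 2 is left only at x1 and above and set 1 only at x8 and below. Dose and primer set are then hard to tell apart. PRE6 measured 523, 503, 516, 418 and 360.0 RPKM in oxidative stress from x1/64 to x8, then 334 and 389 at x100, and 247, 174, 194, 156 and 143 RPKM in unstressed cells, then 129 and 139. Both series were lowest at x100.

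Drug-free RPN4 did not continue this trend, since it was 111 RPKM in oxidative stress and 22.5 RPKM in unstressed cells, both below the values at x1/64. No member had a slope that differed between oxidative stress and unstressed cells, where 0.00% of all 4371 genes did in either direction and 229 genes had an unadjusted p under 0.05 (limma). The difference of slopes of the subunits had a median of -0.01.

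The other conditions had 1 library each, so that no test was possible, and a 2-fold difference served as the mark. Each density is given here with its 95% Poisson interval, computed on recovered reads, which covers counting error only. In the pair of drug-free oxidative and unstressed libraries, which also belong to the dose series, 31 of 32 subunits were past 2-fold, with 39.8% of all genes.

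In both libraries from SD short of amino acids RPN4 was higher by more than any subunit. The paper states that the strain is auxotrophic for histidine, leucine and methionine. It does not count the loss of all amino acids as starvation, and holds that ribosomes then stall at codons for the missing ones. Densities in SD without amino acids carry this limit. RPN4 was at 165 RPKM (interval 150.1 to 180.2) in SD without amino acids and 70.1 RPKM (64.6 to 76.0) in SD with His, Met and Leu only, against 21.1 RPKM (18.8 to 23.6) in complete SD. The differences were 2.91 and 1.69 (log2), or 1.95 and 1.20 after centring. In SD without amino acids the subunit median was 294 RPKM, against 175 RPKM in complete SD. The median difference of 0.72 lay under that of all genes (0.97), and 5 of 32 subunits were past 2-fold higher, against 48.9% of all genes. After centring, 9 of 32 subunits were positive, with a median of -0.24. With His, Met and Leu only, 17 of 32 were past 2-fold higher, against 29.3% of all genes, and the median was 1.03, or 0.54 after centring. This library used primer set 2 and complete SD set 1, so that the medium and the primer set cannot be told apart in this pair.

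The subunits were less uniform without amino acids, where the SD of their log2 density was 0.45, against 0.27 in complete SD. PUP3 was highest without amino acids, at 539.9 RPKM (495 to 588), and was at 528 RPKM (502 to 555) with the 3 amino acids, against 186 RPKM (175 to 199) in complete SD. RPN11 was the 1 subunit that was not higher without amino acids, at 160.5 RPKM (141 to 182), whereas it was at 340.3 RPKM (324 to 358) with the 3 amino acids, against 174 RPKM (165 to 183) in complete SD. The interval of RPN11 without amino acids overlaps that in complete SD.

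With edeine or aurintricarboxylic acid in the lysis buffer, the subunits were near their level in unstressed cells. For aurintricarboxylic acid, according to the methods, RNase I was applied only after the gradient, to pooled polysomes and monosomes. The inhibitor and the digestion cannot be told apart in that pair. With edeine 0 of 32 were past 2-fold in either direction, where 0.951% of all genes were higher and 0.652% lower. Their median difference was 0.12, with PRE8 lowest (-0.34) and RPN6 highest (0.41). With aurintricarboxylic acid 0 of 32 were past 2-fold, where 1.58% of genes were higher and 1.79% lower. The median was 0.34, against 0.16 over all genes, and RPN10 was highest at 0.86, with 249 RPKM (235 to 263), against 137 RPKM (132 to 142) in unstressed cells. RPN4 was higher in both, at 39.6 RPKM (33.6 to 46.5) with edeine and 40.6 RPKM (36.8 to 44.6) with aurintricarboxylic acid, against 22.5 RPKM (21.1 to 24.0) in drug-free unstressed cells, with differences of 0.79 and 0.82 at percentiles 97.6 and 96.4 of all genes. These levels lie inside the range of RPN4 over the 8 unstressed libraries. All of those but the drug-free one, which was the lowest, had cycloheximide in the medium.

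Complete SD was close to YPD. RPN4 measured 21.1 RPKM in complete SD and 22.5 RPKM in drug-free YPD, and 0 of 32 subunits were past 2-fold, where 5.09% of all genes were higher and 1.19% lower. The subunit differences ran from -0.13 (RPN2) to 0.37 (RPN11), with a median of 0.13.

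**Figure D4:**
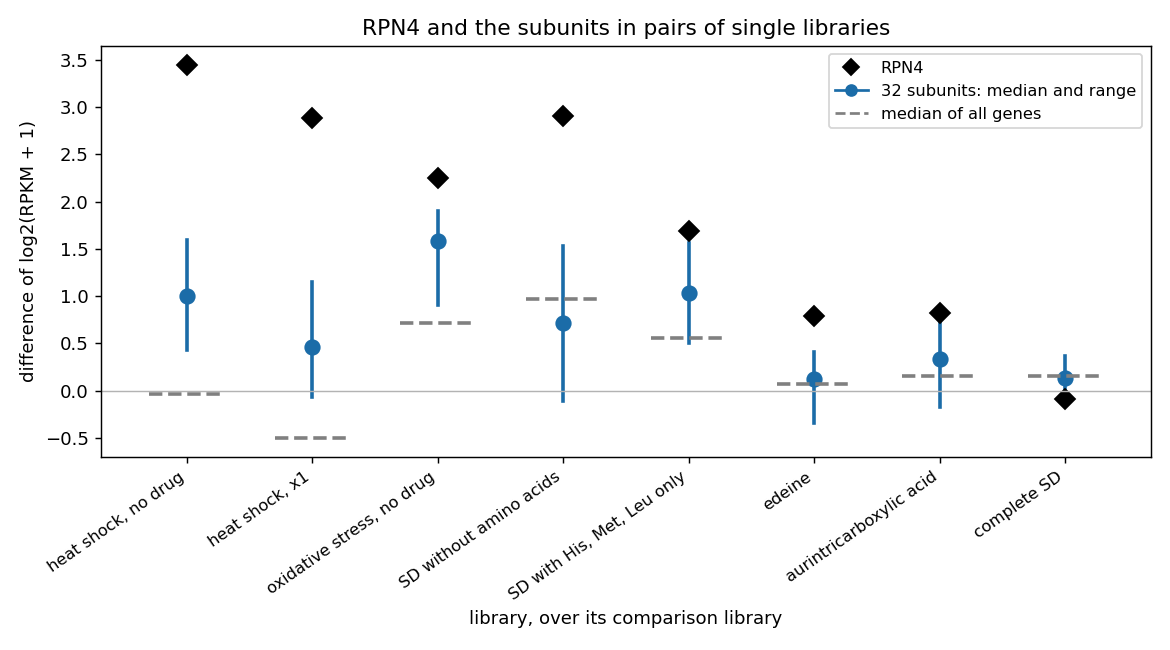
Difference of log2(RPKM + 1) of RPN4 (diamonds), of the 32 subunits (median, with the line from the lowest to the highest) and of all genes (dashed median) for single libraries over their comparison library: heat shock, oxidative stress, edeine, aurintricarboxylic acid and complete SD over unstressed YPD cells, and the libraries from SD short of amino acids over complete SD. RPN4 lies above the highest subunit in heat shock, in drug-free oxidative stress, in both libraries from SD short of amino acids and with edeine.

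Further genes of the pathway were read from lists by role. Of 16 genes for assembly factors and proteins that associate with the proteasome, 15 rose and 1 fell under oxidative stress, with a median of 1.23, and 14 rose and 1 fell after centring. Over all genes 63.0% rose and 22.8% fell, or 41.5% and 41.1% after centring. HUL5, of this list, was at 6.26 to 13.8 RPKM in unstressed cells and reached the mean of 10 RPKM only through the oxidative libraries. Under heat shock 8 of the 16 rose and 3 fell, with a median of 0.51, and 11 rose and 2 fell after centring. Over all genes 26.7% rose and 43.2% fell, or 37.1% and 36.4% after centring. The largest change in both was that of TMA17 (YDL110C), a chaperone of base assembly induced by stress. It measured 285 to 668 RPKM in the 8 oxidative libraries and 674 and 683 RPKM in heat shock, against 16.7 to 48.2 RPKM in the 8 unstressed libraries. Its log2 change was 3.99 ± 0.13 under oxidative stress (adjusted p = 4.86e-11) and 4.50 ± 0.24 under heat shock (adjusted p = 3.04e-09, limma). It was at 1735 RPKM in SD without amino acids and 1034 RPKM with the 3 amino acids, against 107 RPKM in complete SD.

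The maturation factor of the core, UMP1 (YBR173C), rose by 1.81 ± 0.09 under oxidative stress, close to PRE1, and changed by 0.26 ± 0.19 under heat shock (adjusted p = 0.225, limma), where it passed only after centring (0.55). UBP6 (YFR010W), the deubiquitinase that docks on Rpn1, rose by 1.85 ± 0.07 under oxidative stress and 0.92 ± 0.14 under heat shock. POC4 (YPL144W), part of a chaperone of the alpha ring, was the 1 gene called lower in oxidative stress over the dose series. Its change was -0.64 ± 0.17 (adjusted p = 0.00313, limma), but the pairs at single doses did not all go the same way. Over the doses with drug, no gene passed the test for a slope that differed between the stresses (limma). Without drug POC4 measured 20.4 RPKM, against 22.0 RPKM in unstressed cells, a pair that carries no test. At x1/64 it was higher under oxidative stress, at 40.3 RPKM, against 34.1 RPKM. Both libraries of that dose were shallow, with depths of 2.43 (oxidative stress) and 2.03 (unstressed), and this pair carries no test either. At the higher doses POC4 was lower, at 12.8 to 19.2 RPKM, against 25.1 to 42.6 RPKM. It fell by 1.92 under heat shock (adjusted p = 2.18e-04), at 10.7 and 3.93 RPKM, against 22.0 and 27.0 RPKM in the matching unstressed libraries. UMP1, UBP6 and POC4 were singled out after their values were seen.

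All 3 genes of shuttle factors, which carry ubiquitinated proteins to the proteasome, rose under oxidative stress, as did 63.0% of all genes, by 0.81 (RAD23), 1.06 (DSK2) and 2.40 ± 0.10 (DDI1, YER143W). DDI1 was at 168 to 225 RPKM in oxidative stress, against 27.0 to 47.4 RPKM in unstressed cells. Under heat shock DDI1 rose by 1.40 ± 0.20, and it alone of these passed as deposited, with DSK2 (0.32) also past the threshold after centring.

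All 7 genes listed as regulators of RPN4, transcription factors of its promoter and the ubiquitin ligase that marks Rpn4, rose under oxidative stress, with a median of 1.37, and 5 of 7 did after centring, where 63.0% and 41.5% of all genes did. UBR2 was at 3.20 to 5.98 RPKM in unstressed cells and 12.5 to 20.8 RPKM in oxidative stress. UBR2, MUB1 and PDR3 reached the mean of 10 RPKM only through the oxidative libraries. Their entry into the test thus depended on the group in which they were higher. YAP1 (YML007W), the peroxide-responsive factor, rose most, by 2.42 ± 0.09, with 195 to 291 RPKM in oxidative stress, against 34.8 to 53.7 RPKM in unstressed cells. Under heat shock YAP1 changed by 0.40 ± 0.19 (adjusted p = 0.0795, limma), at 68.9 RPKM without drug and 39.2 RPKM at x1, against 34.8 and 39.9 RPKM in unstressed cells, and passed only after centring (0.70). HSF1 (YGL073W), the heat shock factor, rose in both stresses, by 1.77 ± 0.09 with peroxide and 1.04 ± 0.16 at 42°C, and was likewise picked after its values were seen. Of the 6 regulators tested under heat shock, 3 rose, and 5 did after centring, where 26.7% and 37.1% of all genes did. UBR2, of the ligase, lay below the filter in that fit.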

How the data were processed

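Footprint libraries of 80S ribosomes from 23 samples were analysed. The sample of small subunits has no column and was not analysed here. The authors aligned footprints with Bowtie v. 0.12.7 to the S288C genome, with annotations from SGD, and deposited 1 RPKM value per gene and library, with no counts. How reads that align more than once were treated is not given in the sources used here. Of the 5564 lines, 116 join several locus tags and none of these holds a member. Names were matched through a RefSeq table, which named 5446 lines. Which genes belong together, the lists and the tests were chosen with earlier results of these data known.

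Depth was recovered from the RPKM values, of which 94.0 to 98.8% of the low ones per library gave whole reads after 98 to 100 nt were taken off each gene's length. The gene length of PRE3 holds more than its coding part, so its reads are approximate. Density changes were tested with limma on log2(RPKM + 1), two-sided, keeping genes whose mean over the libraries of a fit reached 10 RPKM, with Benjamini-Hochberg adjustment over all genes tested and a threshold of 0.05. Changes are on that scale, which understates those of low genes. The fits were as follows. In 16 libraries, oxidative stress was set over unstressed cells within dose blocks, and again in the 4 libraries at x100. In 18 libraries, heat shock was set over unstressed and over oxidative stress, again within dose blocks. The dose trend used 14 libraries, as did a separate fit with the interaction of dose and stress. The p-values measure the spread between these libraries. In the fit over 18 libraries this spread comes mostly from oxidative and unstressed cells, since heat shock had 2 libraries, 1 per dose. Single libraries were compared by a 2-fold mark. Scripts were tested on simulated data. Values in every library are given for RPN4, for the member with the largest change of each subunit group, for the smallest overall and for those that differ in direction. Named related genes are those with the largest change in each list unless said otherwise. Alternatives were pseudocounts of 0.1 and 10, no filter or one at 30 RPKM, centring, the primer set, the replicate number as a block, other sets of doses and leaving out libraries. Promoter and protein sequences were not used here. Tests ran in limma 3.58.1 under R 4.3.3, and descriptions in pandas 2.3.3, scipy 1.17.1 and numpy 2.4.6 under Python 3.11.15, with figures by matplotlib 3.10.9.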

Additional observations from a re-analysis of the deposited data

How the results depend on the processing

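Under oxidative stress the 32 subunits and RPN4 passed at every alternative, over the dose series and at x100. The 2 replicates at x100 share numbers that the labels do not tie to a culture or day. With the replicate number as a block, 32 subunits rose at x100. Over all genes 2348 rose and 848 fell, against 2266 and 807 without the block. The deviations of same-numbered libraries from the mean of their stress correlated at 0.436 over 4101 genes. The block changed no call of a member. Under heat shock 17 subunits passed without the drug-free heat shock library (20.9% of all genes) and 5 with only the 2 pairs (17.8%), while RPN4 passed at every alternative, at 2.76 to 3.37. In heat shock over oxidative stress, centring left 3 subunits higher and 1 lower, and turned 19 to a positive sign: PRE1 0.00, RPT5 0.02, RPN6 0.02, RPN2 0.05, RPT1 0.06, RPT2 0.07, RPN10 0.08, RPN1 0.12, PRE8 0.12, RPN5 0.16, RPN9 0.18, PRE10 0.20, RPT4 0.22, PUP2 0.27, PRE7 0.27, SCL1 0.41, RPN13 0.43, RPN11 0.51 and PRE6 0.56. In the dose trend, centring gave 8 subunits higher and 1 lower. Leaving out 1 dose gave 0 to 5 subunits lower (0 without x1/64, 2 without x100, 3 without x8), leaving out 1 library at x100 gave 3 to 5, and RPN4 ran from -0.26 (without x100) to -0.22 (without x1/16), with -0.25 without x1/64 (adjusted p = 0.161). For single libraries, centring left 14 subunits past 2-fold in drug-free oxidative stress, 0 higher and 1 lower without amino acids, and 3 with His, Met and Leu only. A mark of 1.5-fold gave 30 in drug-free heat shock, 21 without amino acids, 30 with His, Met and Leu only, and 3 with aurintricarboxylic acid. The difference of beta and alpha ring in heat shock was -0.08 from means, against -0.06 from medians. The cause of these shifts was not tested. Fits that leave libraries out also rest on fewer libraries. The shallowest library was SD without amino acids, at 1.92, in units of 10 to the power of 6 reads, and RPN4 had the fewest reads in unstressed x1/64 (149) and edeine (151).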

Other observations

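Over the 23 libraries, the genes other than the 33 whose log2(RPKM + 1) was most like that of RPN4 were HSP78 (Pearson's r 0.957), OPI10 (0.955), IML2 (0.952), HRK1 (0.948) and PTP2 (0.943), of 4350 genes. The mean of the 32 subunits was most like UBP6 (0.990), DOA1 (0.988), PRX1 (0.981), UFD1 (0.979) and MAG1 (0.978). Single subunits correlated with the mean of the subunits at 0.911 (RPN13) to 0.996 (RPT3), and with RPN4 at 0.613 (RPN10) to 0.848 (PRE6). RPN4 had an r of 0.743 with the subunit mean, at rank 1405 of 4383 genes, members included. Each subunit is itself part of that mean, whereas RPN4 is not. The points share libraries, depth and the groups of stress, and several are of the same condition, so these values are a description only.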
